A study of Homo sapiens with 8 samples.

Results

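The 51 genes described here encode the machinery that transcribes ribosomal DNA and the nucleolar factors that turn the transcript into ribosomal subunits. They were listed by symbol from their known roles, but with earlier results of these data known. A gene was used if it reached 10 in any of the 8 libraries. All 51 did so, out of 14429 genes that passed the same limit and 20531 genes listed, and none was near it: the member whose highest value was lowest was RRP9, at 330.0. Poly(A) RNA was sequenced from cultures of SKBR-3 and BT474m1, human breast cancer lines with amplified HER2 (ERBB2). BT474m1, derived from the line BT474, is positive for the hormone receptors of estrogen and progesterone, and SKBR-3 is negative for them. In each line the 4 groups were DMSO, which is the vehicle, 300 nM lapatinib, which inhibits the EGFR and HER2 kinases, 300 nM JQ1, which displaces BET bromodomain proteins from acetylated chromatin, and 300 nM of each drug together, all sampled after 48 h according to the labels. Each group held 1 library, so no difference within a line could be set against a spread between replicates, no test was run and no p-value is given. The labels do not say whether the libraries of SKBR-3 and BT474m1 were prepared or sequenced together, so line and batch cannot be told apart.

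Values are read counts that the authors normalised so that, among genes above 0, the upper quartile of each library is 1000. They are not corrected for gene length, so levels are compared for 1 gene across libraries and not between genes. Depth lay between 21420108 and 34112365 reads on genes, and 1 read was worth 0.471 to 0.766 units. A log2 fold change is the difference of log2(value + 1), and the range in parentheses after it is its 95% interval from the recovered reads, which covers only the error of counting, since no molecular identifiers tell PCR copies from separate molecules. The label of each line was checked against markers: ERBB2 lay between 94678 and 277872 in all 8 libraries, ESR1 was at 4.29, 16.8, 1.93 and 2.75 in SKBR-3 with DMSO, lapatinib, JQ1 and both drugs against 840.2, 1827, 189.9 and 249 in BT474m1, and PGR followed the same division. The epithelial cadherin gene CDH1 was at 15.1 or below in SKBR-3 and between 19414 and 24373 in BT474m1, whereas EPCAM, KRT8 and KRT18 were present in every library. Of 10 markers of fibroblasts, leukocytes and endothelium, 7 were under 10 in every library, and COL1A1, CD68 and VWF were above it in some.

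Ribosome production begins in the nucleolus, where RNA polymerase I, guided by UBTF, the SL1 complex and RRN3, copies the ribosomal DNA repeats into a long precursor RNA. Small nucleolar ribonucleoproteins modify this precursor, the small subunit processome folds and cleaves it, and separate sets of factors mature the small and large subunits on their way to the cytoplasm. The transcription factor MYC, which binds DNA with its partner MAX, is a well-known activator of these genes, and the output of ribosomes follows cell growth in tumors.

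The sequence CACGTG, called the E-box, is the core recognised by MYC and MAX, and it reads the same on both strands, so 1 search covered both. RefSeq windows from 250 bases before to 50 bases after the gene start (GRCh38.p14) were at hand for 43 of the 51 members, and 19 of these 43 (44.2%) held CACGTG. The share was 7.26% of all 35116 windows, 8.77% of the 27305 genes with a window and 12.4% of the 11389 genes with a window that passed the limit of 10. Within 50 bases of the start the motif was found for 17 members (39.5%), against 5.1% of the genes that passed the limit. It was found in 0 of the 6 windows of the RNA polymerase I machinery, 2 of 4 of the snoRNP proteins, 3 of 6 of the abundant and growth-linked nucleolar proteins, 5 of 11 of the small subunit processome, 3 of 5 of the late small subunit factors and 6 of 11 of the large subunit factors. No window was at hand for BOP1, DDX18, NOLC1, NOP58, POLR1E, RRP12, RRP1B and URB2, so the motif was not sought in them. A match describes these letters and does not show that a factor was bound. The 10 stretches that follow are from members with large changes or core roles in the results, are written 5′ to 3′ on the strand of the gene, and carry the motif in capitals. Positions count from the RefSeq start, with negative numbers upstream, so that those after the start lie in the first transcribed bases.
LYAR (chr4:4290068-4290097, minus strand, motif from base -64): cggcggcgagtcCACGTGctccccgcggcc
FBL (chr19:39846356-39846385, minus strand, motif from base 7): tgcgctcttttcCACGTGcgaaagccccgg
UTP20 (chr12:101280083-101280112, plus strand, motif from base -10): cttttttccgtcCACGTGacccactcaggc
DDX21 (chr10:68956604-68956633, plus strand, motif from base -31): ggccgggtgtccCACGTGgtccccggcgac
BYSL (chr6:41921515-41921544, plus strand, motif from base 29): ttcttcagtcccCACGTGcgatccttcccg
LTV1 (chr6:143843354-143843383, plus strand, motif from base 29): gtcctggggctgCACGTGtggtgaggccta
PES1 (chr22:30591880-30591909, minus strand, motif from base 14): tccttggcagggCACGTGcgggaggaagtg
NOP2 (chr12:6568242-6568268, minus strand, motif from base 36): aggtccggattgCACGTGgagggccgc
MRTO4 (chr1:19251807-19251836, plus strand, motif from base 15): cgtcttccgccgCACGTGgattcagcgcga
NOC3L (chr10:94362903-94362932, minus strand, motif from base 20): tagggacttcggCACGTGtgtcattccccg

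The course of MYC differed between the lines. Its values with DMSO, lapatinib, JQ1 and both drugs, the order used for every set of 4 values that follows, were 2143, 1349.9, 1879 and 1416 in SKBR-3 and 463, 2312, 37.2 and 60.1 in BT474m1. In SKBR-3 it was below DMSO in each drug library, with a log2 fold change against DMSO of -0.67 (-0.75 to -0.58) with lapatinib, -0.19 (-0.26 to -0.12) with JQ1 and -0.60 (-0.68 to -0.52) with both drugs. The BT474m1 values were 2.32 (2.22 to 2.42) with lapatinib, -3.60 (-3.99 to -3.30) with JQ1 and -2.92 (-3.25 to -2.65) with both drugs, so that MYC was high with lapatinib alone and low in both libraries with JQ1. MYCN, a paralog of MYC, was at 436, 113, 216 and 21.0 in BT474m1, where it was highest with DMSO, and at 1 to 2 reads in every SKBR-3 library. MYCL, listed under its older symbol MYCL1, was at 11.5, 67.4, 14.2 and 50.9 in SKBR-3 and 399, 869.9, 781 and 1087 in BT474m1. MAX, the shared partner, was at 989, 1697, 1058 and 1484 in SKBR-3 and 1227, 1640.4, 1499 and 1601 in BT474m1. Both MYCL1 and MAX were thus lowest with DMSO in each line.

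The summed values of the 51 ribosome biogenesis genes were below DMSO in all 6 drug libraries. With DMSO, lapatinib, JQ1 and both drugs their values summed to 105660, 60908, 97610.2 and 66127 in SKBR-3, and to 78516, 67784.5, 68676 and 56135 in BT474m1. From lapatinib alone to both drugs the sum was higher in SKBR-3 and lower in BT474m1. In SKBR-3 the order of the sum over the 4 libraries was that of MYC, with lapatinib alone lowest. For MYC, however, lapatinib and both drugs lay within counting error of each other there. In BT474m1 the sum was lowest with both drugs, and with lapatinib, where MYC was highest, it stood below DMSO. Such sums are led by the members with the most reads, so the counts of genes in the next sentences weigh each member alike. In bulk RNA a lower content per cell and a smaller share of cells that express these genes cannot be told apart.

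**Figure D1:**
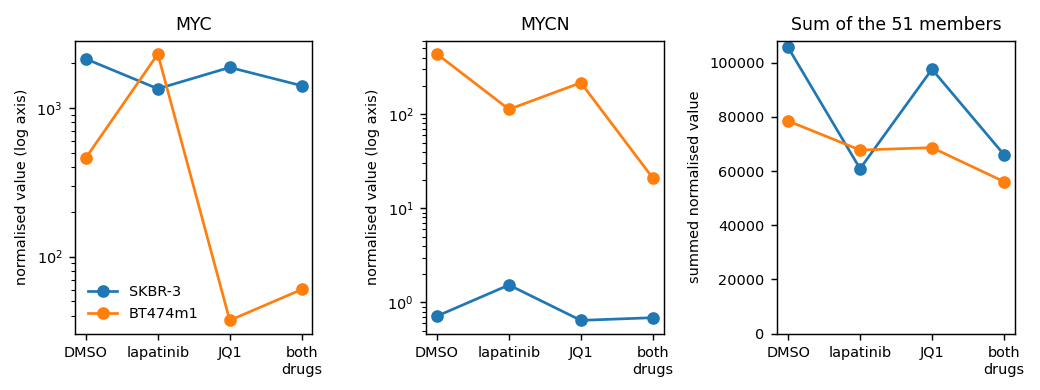
Normalised values of MYC and MYCN on log axes and the summed values of the 51 members on a linear axis from 0, in the DMSO, lapatinib, JQ1 and both-drug libraries of SKBR-3 (blue) and BT474m1 (orange), with 1 library per point. MYC in BT474m1 is highest with lapatinib and lowest with JQ1, whereas the sum of the members is highest with DMSO in both lines.

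With lapatinib in SKBR-3, 48 of the 51 members were lower than with DMSO, against 44.3% of all genes kept, and 14 were at least 2-fold lower, against 9.44% of all genes. None was at least 2-fold higher, where 11.1% of all genes were. Their median log2 fold change was -0.74, with quartiles of -1.02 and -0.59, beside a median of 0.05 over all genes. The counting interval lay below 0 for 47 members (30.4% of all genes) and above 0 for 2 (37%).

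With lapatinib in BT474m1, where MYC was 2.32 higher on the log2 scale, 42 members were lower than with DMSO (44.7% of all genes), none was at least 2-fold lower (8.06%) and only TAF1D was at least 2-fold higher (14% of all genes). The median of the members was -0.27, beside 0.07 over all genes. The interval was below 0 for 35 members (33.5% of all genes) and above 0 for 7 (42.4%).

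JQ1 alone was followed by small differences in both lines. In SKBR-3, 42 members were lower (56.5% of all genes) with a median of -0.16, and 0 were at least 2-fold lower, against 11.8% of all genes. In BT474m1, where MYC was far lower, 40 members were lower (54.4% of all genes) with a median of -0.33, and again 0 were at least 2-fold lower, against 11.8%. No member was at least 2-fold higher with JQ1 in SKBR-3 (3.75% of all genes) or BT474m1 (4.81%). The medians over all genes were -0.08 in SKBR-3 and -0.06 in BT474m1. Scaled to equal totals, the SKBR-3 medians became -0.30 for the members, with 49 lower, and -0.22 for all genes, and with the median of ratios they became -0.07, with 34 lower, and -0.00056.

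With both drugs, 46 members were lower in SKBR-3 (53.7% of all genes) and 47 in BT474m1 (49.1%). None was at least 2-fold higher in SKBR-3 (10.8% of all genes) or BT474m1 (14.2%). At least 2-fold lower were 21 members in SKBR-3, against 20.8% of all genes, and 9 in BT474m1, against 15.3%, so that the 17.6% of members in BT474m1 lay near the share of all genes. The SKBR-3 count was 14 with the median of ratios, 24 with equal totals and 15 without members whose reads were fractional. The medians were -0.89 in SKBR-3 and -0.55 in BT474m1, beside -0.08 and 0.00066 over all genes. At least 2-fold lower in both lines were 6 members, POLR1A, LTV1, BYSL, NOP16, MRTO4 and PPAN, which are 11.8% of the 51 and near the 8.93% of all genes. They are 28.6% of the members so called in SKBR-3 and 66.7% of those in BT474m1. Among all genes, 3008 were so called in SKBR-3, 2209 in BT474m1 and 1288 in both lines. PPAN shares exons with the read-through gene PPAN-P2RY11, which was at 43.0 with DMSO and 164 with both drugs in BT474m1, and the sum of the pair was at -0.52 there, short of 2-fold.

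Adding JQ1 to lapatinib was read from the library with both drugs against the library with lapatinib alone. In SKBR-3 the median of the members was -0.03, 30 were lower (58.7% of all genes) and 0 were at least 2-fold lower (16.2% of all genes) or higher (3.22%), but the median turned to 0.13 and the number lower to 19 when libraries were scaled by the median of ratios, which moved the median over all genes from -0.11 to 0. MYC was at 0.07 (-0.02 to 0.16) in the same comparison, and at 0.23 with the median of ratios. In BT474m1 the median was -0.36, beside -0.02 over all genes, 44 members were lower (51.6% of all genes) and BYSL and URB2 were at least 2-fold lower (12.5% of all genes), with 0 at least 2-fold higher (5.2%). MYC was there at -5.24 (-5.56 to -4.98), with 2312 with lapatinib against 60.1 with both drugs. The comparisons within a line share libraries and are not independent of each other.

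**Figure D2:**
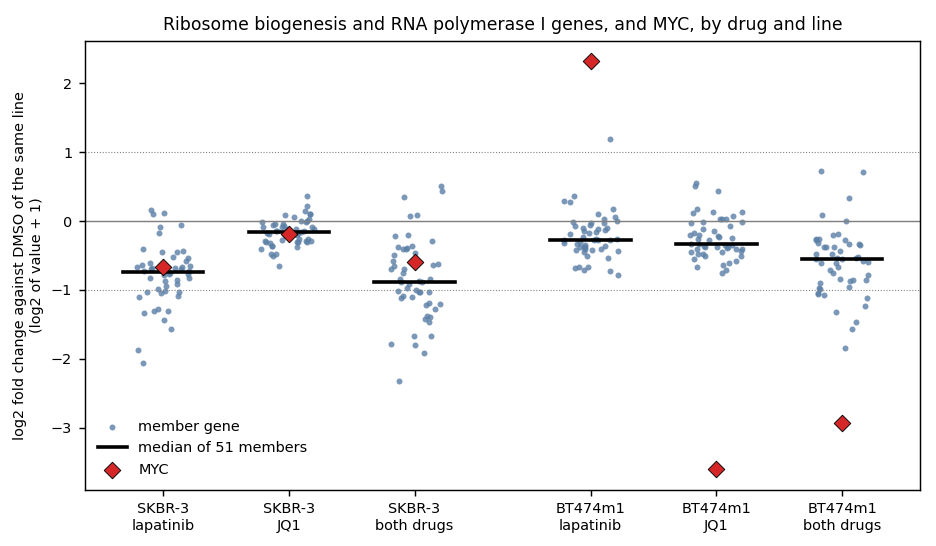
Log2 fold change against DMSO of the same line for each of the 51 members (blue points, spread sideways only for legibility), their median (black bar) and MYC (red diamond), with dotted lines at a 2-fold difference. The medians run from -0.89 to -0.16, whereas MYC lies at 2.32, -3.60 and -2.92 in BT474m1 and within the members' range in SKBR-3.

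The order of the libraries gives the same comparison without a threshold. In SKBR-3, DMSO was the highest of the 4 libraries for 39 of the 51 members (30.4% of all genes), as it was for MYC, and the library with lapatinib alone, the lowest for MYC, was lowest for 19 members (15.3%), while the library with both drugs was lowest for 29 (32%). The full order of MYC was shared by 12 members, against 3.24% of all genes. MYC itself differed by only 0.07 between these 2 libraries, within counting error, so its lowest library in SKBR-3 was not settled. In BT474m1, DMSO was again highest for 36 members (26.1% of all genes), whereas the library with lapatinib, highest for MYC, was highest for 7 (29.2%). The library with both drugs was lowest for 37 members (23.6%), and that with JQ1, lowest for MYC, for 5 (27.8%). Only 3 members had the full order of MYC there, against 9.12% of all genes. Across all 6 drug libraries, 31 members were below their own DMSO library each time, against 13.4% of all genes, and 24 were with the median of ratios and 34 with equal totals.

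The RNA polymerase I machinery had 7 members, 4 of them subunits of the polymerase and 3 of them factors. POLR1A, the largest subunit with the catalytic center, was at 2008, 1204, 2215 and 828 in SKBR-3 and 1258, 762, 950.2 and 503 in BT474m1. Its log2 fold change with both drugs was -1.28 (-1.38 to -1.18) in SKBR-3 and -1.32 (-1.43 to -1.21) in BT474m1, and with lapatinib -0.74 (-0.83 to -0.65) and -0.72 (-0.82 to -0.63). The intervals of the lines overlapped in both comparisons, and POLR1A was lowest with both drugs in each line. JQ1 alone gave 0.14 in SKBR-3, which became -0.0041 with equal totals, and -0.40 in BT474m1. POLR1B, the second-largest subunit, was at 1779, 1232, 1384 and 959.6 in SKBR-3 and 1034, 1250.0, 675 and 708 in BT474m1, and its highest library was DMSO in SKBR-3 and lapatinib in BT474m1. The lapatinib log2 fold change of POLR1B was -0.53 (-0.62 to -0.44) in SKBR-3 and 0.27 (0.19 to 0.36) in BT474m1.

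Of the factors that bring the polymerase to the ribosomal DNA promoter, TAF1D stood above DMSO and UBTF and RRN3 below it with lapatinib in BT474m1. UBTF, which binds along the repeats, was at 1754, 1887, 1427 and 1859 in SKBR-3 and 2508, 1964, 1980.2 and 1733 in BT474m1. It was slightly above DMSO with lapatinib in SKBR-3, at 0.10 (0.02 to 0.19), and below it in BT474m1, at -0.35 (-0.42 to -0.29). With equal totals its SKBR-3 value with lapatinib became 0.05 (-0.03 to 0.13) and that with both drugs, 0.08, became -0.0039. RRN3, which links the polymerase to the promoter factors, was at 1789, 1594, 1489.9 and 1378 in SKBR-3 and 2079, 1551, 2056 and 1533 in BT474m1, so that its log2 fold changes lay between -0.44 and -0.02 in the 6 drug libraries, the last of these, with JQ1 in BT474m1, turning to 0.02 with the median of ratios. TAF1D, a subunit of SL1, was the only member at least 2-fold higher in any drug library, at 836, 806, 854 and 1131 in SKBR-3 and 345, 793, 373 and 567 in BT474m1. In BT474m1 it was 1.197 (1.07 to 1.33) higher with lapatinib on the log2 scale, from a DMSO level below that of SKBR-3, and in SKBR-3 it was above DMSO with both drugs, at 0.44 (0.33 to 0.55). The reads of RRN3 and TAF1D were fractional estimates in all 8 libraries, and the pseudogenes RRN3P1, RRN3P2 and RRN3P3 are listed beside RRN3, so how reads were shared bears on these values. POLR1C, a subunit shared with RNA polymerase III, and POLR1E, a subunit of a peripheral heterodimer, were between -0.77 and -0.40 with lapatinib in SKBR-3 and at -0.02 and -0.01 in BT474m1.

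All 6 proteins of small nucleolar ribonucleoproteins were lower in both lines with lapatinib, as were 44.3% of all genes in SKBR-3 and 44.7% in BT474m1. All 6 were also lower with the drugs combined (53.7% and 49.1% of all genes), with lapatinib and combined medians of -0.98 and -0.96 in SKBR-3 and -0.35 and -0.48 in BT474m1. FBL, the methyltransferase of the box C/D particles whose E-box is printed above, was at 2288, 1446, 2068 and 1419 in SKBR-3 and 1486, 1367, 1249.8 and 1169 in BT474m1. FBL was highest with DMSO in both lines and had the narrower range in BT474m1. NOP56, another core protein of the box C/D particles, was at 3651, 1515, 3900.1 and 2044 in SKBR-3 and 2888, 2217, 3164 and 2066 in BT474m1. The log2 fold change of NOP56 with lapatinib was -1.27 (-1.35 to -1.19) in SKBR-3 and -0.38 (-0.44 to -0.32) in BT474m1, whereas with JQ1 it was 0.10 and 0.13, the former turning to -0.05 with equal totals. DKC1, the pseudouridine synthase of the box H/ACA particles, was at 2397, 1189, 2075 and 1178 in SKBR-3 and 1971, 1472, 1271 and 997 in BT474m1. DKC1 was lower than DMSO in all 6 drug libraries, at -0.98 (-1.07 to -0.90) with both drugs in BT474m1. NOLC1, a nucleolar chaperone of these particles, was at 3232, 1312, 3247 and 1395 in SKBR-3 and 2688, 2167, 2133 and 1785 in BT474m1. Its lapatinib value in SKBR-3, -1.30 (-1.38 to -1.22), was the lowest of the 6, against -0.31 (-0.37 to -0.25) in BT474m1. With JQ1 in SKBR-3, NOLC1 was at 0.01, or -0.14 with equal totals. NOP58 and RRP9, the remaining core and U3-specific proteins, were at -0.94 and -0.91 with lapatinib in SKBR-3 and at -0.26 and -0.41 in BT474m1.

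Among the abundant and growth-linked nucleolar proteins, the lapatinib median was -1.01 in SKBR-3 and -0.23 in BT474m1. NCL, nucleolin, a major RNA-binding protein of the nucleolus, was at 16374, 7990.1, 16371 and 11633 in SKBR-3 and 15769, 11942, 13769 and 10836 in BT474m1. In SKBR-3 it was -1.04 (-1.07 to -1.002) with lapatinib and -0.49 (-0.52 to -0.46) with both drugs, so that NCL stood nearer to DMSO when JQ1 was added to lapatinib. NPM1, nucleophosmin, a chaperone of ribosomal particles, was at 9880.5, 6133, 8940.1 and 8544 in SKBR-3 and 7457, 7773, 7634 and 6511 in BT474m1. With lapatinib NPM1 was at -0.69 (-0.73 to -0.65) in SKBR-3 and 0.06 (0.03 to 0.09) in BT474m1, so the library with lapatinib was the lowest of the 4 in SKBR-3 and the highest in BT474m1. With the median of ratios its BT474m1 values were 0.0063 with lapatinib and 0.07 with JQ1, so that JQ1 was then the highest. LYAR, a nucleolar protein linked to cell growth, was at 375, 89.6, 288 and 99.1 in SKBR-3 and 259, 151, 216 and 169 in BT474m1. Its log2 fold change with lapatinib was the lowest of all members in SKBR-3, -2.05 (-2.37 to -1.77), and again in BT474m1, -0.78 (-1.003 to -0.56). DDX21, an RNA helicase of the nucleolus, and PA2G4, a growth regulator that binds ERBB3, were at -1.03 and -0.99 with lapatinib in SKBR-3 and at -0.09 and -0.37 in BT474m1. GNL3, nucleostemin, differed from its group, at -0.09 in SKBR-3 and 0.37 in BT474m1.

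**Figure D3:**
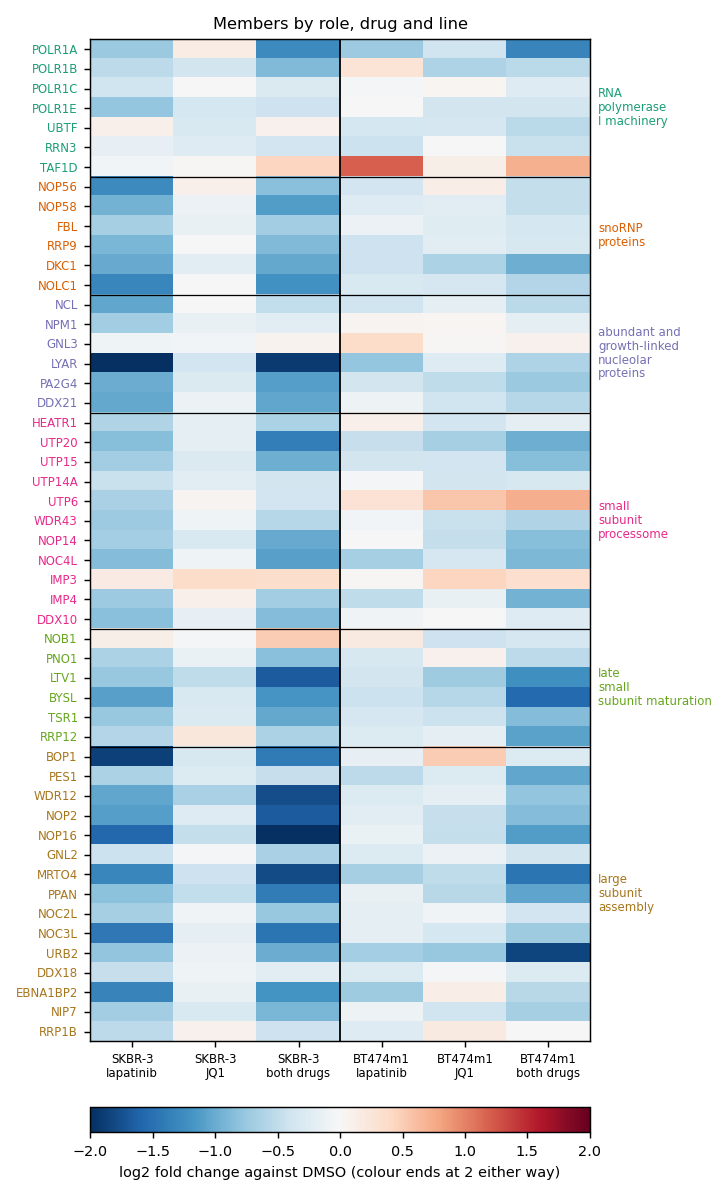
Log2 fold change against DMSO of each of the 51 members (rows, grouped by role) for lapatinib, JQ1 and both drugs in SKBR-3 and BT474m1 (columns); blue is lower and red is higher, and the colour ends at 2 either way. The columns of lapatinib and both drugs in SKBR-3 are blue in most rows, the JQ1 columns are pale, and TAF1D and UTP6 are the reddest rows in BT474m1.

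UTP6 of the small subunit processome stood on opposite sides of DMSO in the lines with lapatinib. This processome, the large particle that assembles on the 5′ part of the precursor, had 11 members, of which lapatinib was followed by lower values for 10 in SKBR-3 (44.3% of all genes) and 7 in BT474m1 (44.7%), or 9 there with the median of ratios, with medians of -0.70 and -0.05. HEATR1, a scaffold of the particle that also acts in transcription of ribosomal DNA, was at 1877, 1236, 1642 and 1207 in SKBR-3 and 2064, 2208, 1591 and 1817 in BT474m1. It was -0.60 (-0.69 to -0.51) with lapatinib in SKBR-3 and 0.10 (0.03 to 0.16) in BT474m1, where the median of ratios gave 0.04 (-0.02 to 0.11), an interval that includes 0. UTP20, a very large scaffold protein, was at 2079, 1147, 1832 and 799 in SKBR-3 and 1020.3, 745, 640.1 and 520.1 in BT474m1. With both drugs UTP20 was -1.38 (-1.48 to -1.28) in SKBR-3 and -0.97 (-1.09 to -0.86) in BT474m1, the lowest value of the 11 in each line. UTP6, a component of the same particle, was at 490.3, 312, 511 and 374 in SKBR-3 and 762, 935, 1115 and 1265 in BT474m1. UTP6 was thus below DMSO with lapatinib in SKBR-3 and above DMSO in all 3 drug libraries of BT474m1, where it reached 0.73 (0.64 to 0.83) with both drugs, the highest value of any member in any comparison with both drugs. IMP3, which with IMP4 binds the U3 RNA, had values above 0 in all 6 drug libraries, from 0.02 (-0.08 to 0.13) with lapatinib in BT474m1, an interval that includes 0 and a value below 0 with the median of ratios, to 0.43 (0.34 to 0.53) with JQ1. UTP15, UTP14A, WDR43, NOP14, NOC4L, IMP4 and DDX10 lay between -0.87 and -0.45 with lapatinib in SKBR-3 and between -0.67 and 0.01 in BT474m1. A near-identical copy of UTP14A, UTP14C, is listed beside it and went the other way with lapatinib. In SKBR-3 UTP14C was at 1241 with DMSO and 1515 with lapatinib, against 646 and 472 for UTP14A. Its log2 fold change with lapatinib was 0.29 (0.19 to 0.38) in SKBR-3 and 0.23 (0.16 to 0.30) in BT474m1. The values of UTP14A were -0.45 and -0.03, and the pair was not summed.

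The 6 factors of late small subunit maturation had lapatinib medians of -0.70 in SKBR-3 and -0.33 in BT474m1, and medians with both drugs of -0.93 and -0.97, the lowest of any role group in BT474m1. LTV1, which rides on the precursor of the small subunit, was at 803, 474, 563 and 253 in SKBR-3 and 567, 438, 344 and 241 in BT474m1. It was -0.90 (-1.09 to -0.72) with both drugs against lapatinib alone in SKBR-3 and -0.86 (-1.04 to -0.68) in BT474m1, intervals that overlap. BYSL, bystin, another factor of the small subunit precursor, was at 513, 240.4, 414 and 226 in SKBR-3 and 341, 252, 229 and 115 in BT474m1. With both drugs against lapatinib BYSL was -0.09 (-0.32 to 0.14) in SKBR-3 and -1.13 (-1.38 to -0.88) in BT474m1. NOB1, the endonuclease that makes the final cut of 18S rRNA, was at 719, 777, 700.4 and 1022 in SKBR-3 and 679.9, 766, 512 and 539 in BT474m1. It was above DMSO with both drugs in SKBR-3, 0.51 (0.39 to 0.62), and below it in BT474m1, -0.34 (-0.46 to -0.22). PNO1, the partner of NOB1, TSR1 and RRP12 were at -0.84, -1.02 and -0.63 with both drugs in SKBR-3 and at -0.53, -0.86 and -1.08 in BT474m1.

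All 15 large subunit factors were lower with lapatinib, and with both drugs, in both lines, except that RRP1B, at -0.0036 with both drugs in BT474m1, stood above DMSO there with equal totals. Of all genes, 44.3% and 44.7% were lower with lapatinib in SKBR-3 and BT474m1, and 53.7% and 49.1% with both drugs. The factors' SKBR-3 medians were -0.83 with lapatinib and -1.20 with both drugs, and the BT474m1 medians were -0.26 and -0.70. BOP1 and PES1 form a complex with WDR12 that is needed to process the large subunit RNAs. BOP1 was at 1096, 299.7, 878 and 409 in SKBR-3 and 485, 434, 691 and 399 in BT474m1, and its log2 fold change with lapatinib was -1.87 (-2.04 to -1.71) in SKBR-3 against -0.16 (-0.30 to -0.02) in BT474m1. In BT474m1 BOP1 was highest with JQ1, at 0.51 (0.39 to 0.63), the library where MYC was lowest. PES1 was at 1466, 946, 1216 and 1060.0 in SKBR-3 and 1139, 789, 939.6 and 555 in BT474m1. Its log2 fold change for both drugs was -0.47 (-0.56 to -0.37) in SKBR-3 and -1.04 (-1.15 to -0.93) in BT474m1. The 3 members of that complex were thus not lower in proportion to each other, since WDR12 was at -1.04 with lapatinib in SKBR-3. NOP16, a factor of early large subunit particles, was at 661, 222, 476 and 132 in SKBR-3 and 387, 353, 277 and 177 in BT474m1. It was the lowest of all members with both drugs in SKBR-3, at -2.32 (-2.56 to -2.10), against -1.12 (-1.32 to -0.94) in BT474m1. URB2 was at 657, 381, 608 and 329 in SKBR-3 and 364, 226, 215 and 101 in BT474m1. Of all members it had the lowest log2 fold change for both drugs in BT474m1, -1.84 (-2.10 to -1.61). The remaining factors (NOP2, GNL2, MRTO4, PPAN, NOC2L, NOC3L, DDX18, EBNA1BP2, NIP7 and RRP1B) lay between -1.79 and -0.22 with both drugs in SKBR-3 and between -1.46 and -0.0036 in BT474m1. Reads of NOC2L were fractional in all 8 libraries, whereas those of BOP1 were whole in 1 library, those of PPAN in 2 and those of EBNA1BP2 in 7. The values of BOP1 given here thus rest mostly on estimated reads. With lapatinib in BT474m1 PPAN alone was at -0.14 but its sum with PPAN-P2RY11 at 0.26.

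The lapatinib response of the members was weaker in BT474m1 than in SKBR-3 by a median of 0.60 on the log2 scale, beside 0.01 over all genes, and 48 of the 51 members were higher in that comparison of log2 fold changes (50.8% of all genes). The difference was at least 2-fold for 5 members (12.5% of all genes): BOP1 with 1.71, NOP16 with 1.44, LYAR with 1.28, TAF1D with 1.25 and NOC3L with 1.24. MYC differed in the same direction by 2.99. Still, 41 members were lower with lapatinib in both lines, against 28.6% of all genes. With JQ1 the median difference was -0.10, 16 members were higher in BT474m1 (52.2% of all genes), none at least 2-fold (8.84%), and 36 were lower in both lines (39.7%). For both drugs against DMSO it was 0.28, with 38 members higher in BT474m1 (57.1%), 4 of them at least 2-fold (19.7%), and 45 lower in both lines (35.5%). For both drugs against lapatinib it was -0.27, with 12 members higher in BT474m1 (58%), none at least 2-fold (13%), and 30 lower in both lines (37.9%), so that adding JQ1 to lapatinib gave a lower log2 fold change in BT474m1 than in SKBR-3 for 39 members, 1 of them, BYSL, by more than 2-fold (-1.03, against 7.44% of all genes). Each line stands for 1 library per group, so none of these differences was tested.

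**Figure D4:**
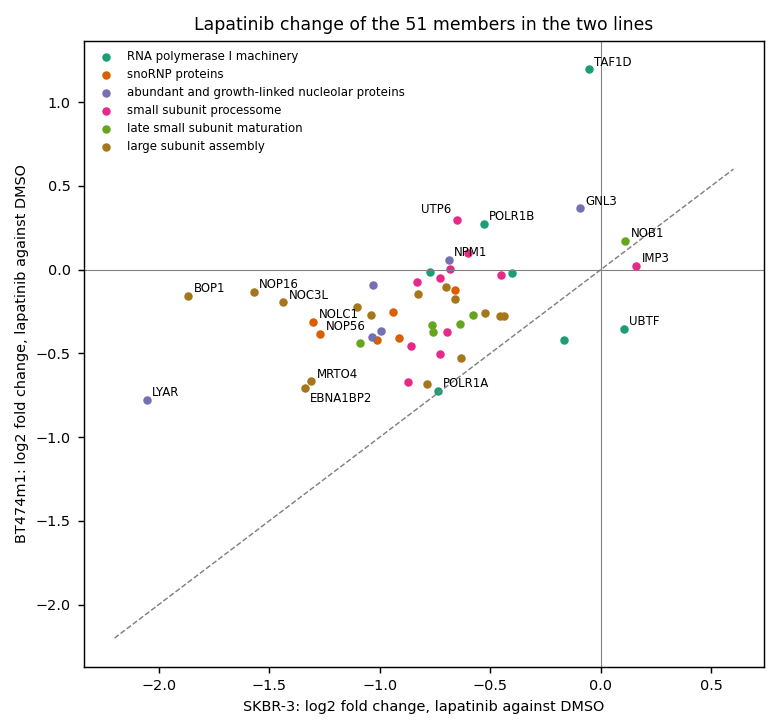
Log2 fold change of each member with lapatinib against DMSO in SKBR-3 (horizontal) and BT474m1 (vertical), coloured by role, with a dashed line where both are equal. Of the 51 points, 48 lie above the dashed line and 41 are below 0 on both axes.

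In the DMSO libraries, sampled after 48 h in vehicle, the members were lower in BT474m1 than in SKBR-3 for 38 of 51 (42.4% of all genes), with a median log2 difference of -0.36 beside 0.21 over all genes, and MYC was at 463 against 2143. At least 2-fold lower were 9 members, which are 17.6% of the 51 and near the 15.6% of all genes. The lowest were EBNA1BP2, at 537 against 2382, and POLR1E, at 143 against 471. None was at least 2-fold higher, where 26.8% of all genes were. Scaling by the median of ratios moved the median of the members to -0.52 and that of all genes to 0.06. Line and library preparation cannot be told apart in this comparison.

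Members with and without CACGTG in the window had overlapping ranges of change in every comparison with DMSO. With lapatinib in SKBR-3 the 19 members with the motif had a median of -0.76 and the 24 without it -0.70, with JQ1 -0.17 and -0.18, and with both drugs -1.01 and -0.85. In BT474m1 the medians with lapatinib were -0.32 and -0.16, with JQ1 -0.35 and -0.34, and with both drugs -0.61 and -0.54. The 8 members with no window had medians of -0.78, -0.10 and -0.81 with lapatinib, JQ1 and both drugs in SKBR-3. Their BT474m1 medians were -0.27, -0.21 and -0.43. The lowest member with lapatinib in SKBR-3, LYAR, has the motif printed above, and the lowest with both drugs there, NOP16, was among those without it.

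Other genes of the same processes were read from lists of 10 further RNA polymerase I genes, 75 further ribosome biogenesis genes, 79 cytosolic ribosomal protein genes and 18 RNA polymerase III genes. The further RNA polymerase I genes had medians of -0.43, -0.27 and -0.63 with lapatinib, JQ1 and both drugs in SKBR-3 and of -0.04, -0.15 and -0.19 in BT474m1. Among them TCOF1, which encodes treacle, a partner of UBTF and the polymerase, was at 3856, 1144, 2793 and 719 in SKBR-3 and 1213, 527, 614 and 332 in BT474m1, so that it was lower than DMSO in all 6 drug libraries and at -2.42 (-2.52 to -2.33) with both drugs in SKBR-3. TAF1C, like TAF1D a subunit of SL1, was at 368, 418, 296 and 319.9 in SKBR-3 and 468, 1346, 509 and 1019 in BT474m1 and, as with TAF1D, its log2 fold change with lapatinib in BT474m1 was high, 1.52 (1.42 to 1.63). The SL1 subunit TAF1A was the lowest of the 10 in the same comparison, at -1.31. The further ribosome biogenesis genes were lower with lapatinib for 70 of 75 in SKBR-3 (44.3% of all genes) and for 48 in BT474m1 (44.7%), with medians of -0.50 and -0.12, and with both drugs -0.58 and -0.35. RRS1, a large subunit factor, was at 720.1, 433, 584 and 234 in SKBR-3 and 906, 814, 407 and 211 in BT474m1, and NVL, which remodels large subunit particles, at 2793, 4159, 3122 and 4162 in SKBR-3 and 1042, 507, 1149 and 591 in BT474m1. RRS1 was low with both drugs in both lines, whereas NVL was above DMSO with lapatinib in SKBR-3 and below it in BT474m1.

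The ribosomal proteins are the structural parts of the subunits. With lapatinib the median of their genes was -0.06 in SKBR-3, where 48 of 79 were lower than with DMSO (44.3% of all genes), and 0.30 in BT474m1, where 71 of 79 were higher (54.5% of all genes). In the 6 comparisons with DMSO 0 of the 79 were at least 2-fold lower, against 8.06% to 20.8% of all genes, or higher, against 3.75% to 14.2%. With both drugs the medians were -0.19 and 0.13, with 56 lower in SKBR-3 (53.7% of all genes) and 25 in BT474m1 (49.1%). Against lapatinib alone, both drugs gave medians of -0.11 and -0.17, with 62 (58.7%) and 65 (51.6%) lower. The RNA polymerase III genes had medians between -0.26 and -0.03 in all 6 comparisons with DMSO, and with lapatinib, JQ1 and both drugs 2, 2 and 3 of the 18 were at least 2-fold lower in SKBR-3 (9.44%, 11.8% and 20.8% of all genes) and 2, 1 and 2 in BT474m1 (8.06%, 11.8% and 15.3%). The lowest values were those of GTF3C6 with both drugs, at -3.50 in SKBR-3 and -2.88 in BT474m1. POLR3G was lowest with lapatinib in SKBR-3, at -2.43. With both drugs in BT474m1 POLR3GL was at least 2-fold higher, at 1.81, as were 14.2% of all genes.

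**Figure D5:**
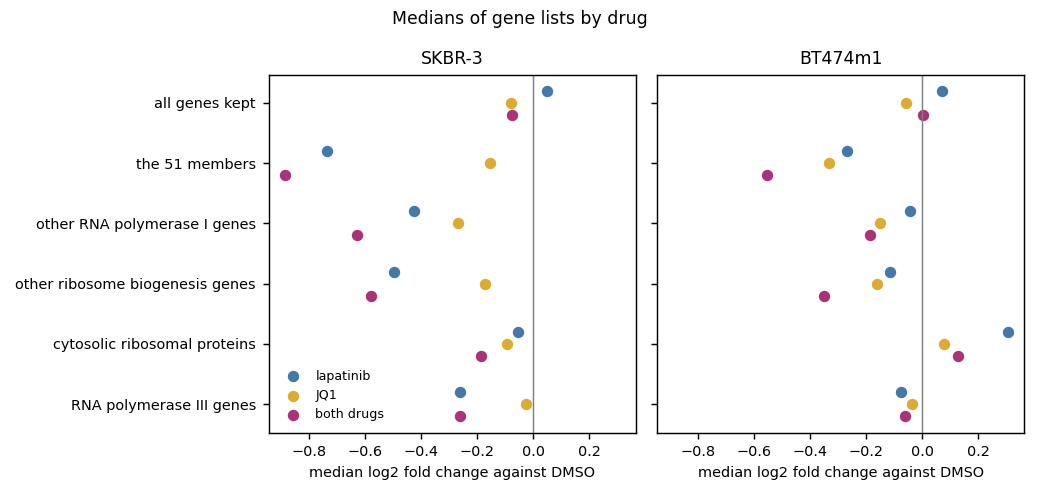
Median log2 fold change against DMSO of all genes kept, of the 51 members and of 4 further gene lists, for lapatinib, JQ1 and both drugs in SKBR-3 (left) and BT474m1 (right) on the same scale. Of the lists plotted, the 51 members have the lowest median with lapatinib and with both drugs in both panels, from -0.27 in BT474m1 to -0.89 in SKBR-3, and the ribosomal proteins reach 0.30 with lapatinib in BT474m1. The members and the lists were chosen with earlier results of these data known.

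Cell cycle genes differed from DMSO by far more than the members with lapatinib and with both drugs. The 11 proliferation genes were all at least 2-fold lower with lapatinib and with both drugs in both lines, where 9.44% and 20.8% of all genes were in SKBR-3 and 8.06% and 15.3% in BT474m1. Their medians were -3.69 and -6.29 in SKBR-3 and -4.85 and -4.61 in BT474m1, and with JQ1 alone they were -0.36 and -1.04. MKI67, the gene of the Ki-67 antigen, was at 8462, 538, 6595 and 44.0 in SKBR-3 and 2739.8, 54.8, 1275 and 54.2 in BT474m1. With lapatinib the median of the proliferation genes was thus lower in BT474m1 than in SKBR-3, while the members were nearer to DMSO in BT474m1, and the part of cell division in the values of the members was not tested.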

How the data were processed

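Poly(A) RNA was sequenced from 8 cultures, 1 for each of 8 groups given by the labels. The labels name 48 h of treatment, as does the study where it shows reads of the FOX family in SKBR-3. A shorter time is given for its RNA sequencing of SKBR-3 after siRNA, in its scheme of the drug experiments and in its methods text. The labels were followed. What the authors deposited is a signal: RSEM estimated counts of each gene, brought to an upper quartile of 1000 in each library. The submitters' processing notes list, with no role or order, hg19, RSEM, Picard 1.88, SAMtools 1.2, R 3.2.2, DESeq and DESeq2 1.12.3, and the methods text names a later assembly and other tools, so the build and aligner are uncertain. Hence no gene coordinates are given except for the printed GRCh38.p14 windows.

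The tools were numpy 2.4.6 and pandas 2.3.3 for values, scipy 1.17.1 for intervals and matplotlib 3.10.9 for plots, under Python 3.11.15. Reads were recovered from the common step of values in each library. Depth was 21420108 to 34112365 reads, 85.0% to 86.3% of values above 0 were whole reads within 0.05, and 42 of the 51 members were whole in every library. Genes at 10 or more in any library were kept, fold changes used log2(value + 1), and 2-fold was the call. Intervals are exact Clopper-Pearson on the recovered reads, and the floor was 3 reads. With 1 library per group no test was run. The members, their 6 role groups and the 9 other lists were chosen with earlier results of these data known. Values in every library are given for 12 members chosen by role and, in each role group, for the members with the largest change against DMSO in each line and the largest line difference with lapatinib. Members named outside this rule, such as GNL3, IMP3 and EBNA1BP2, were chosen after their values were seen. Alternatives were a pseudocount of 10, no filter, a filter at 100, scaling to equal totals or by the median of ratios, the mean for the median, and calls only where the interval excludes 0. Counts of members lower than DMSO and of values that changed sign under each scaling, intervals shifted by the scaling, PPAN summed with its read-through gene, and counts without the 9 members with fractional reads, were added after seeing the data. The calls and intervals were tried on simulated libraries drawn with counting error alone. These hold no spread between cultures, no scaling shift and no fractional reads, so they cannot show how the method stands up to them.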

Additional observations from a re-analysis of the deposited data

Results flagged for a closer look

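Among MYC and the 22 members given value by value, 12 comparisons had log2 fold changes against DMSO on opposite sides of 0 in SKBR-3 and BT474m1, with counting intervals that excluded 0 in both lines. Each line had 1 library per group, so the difference was not tested in any of them, and each difference is BT474m1 minus SKBR-3 on the log2 scale. With lapatinib these were MYC with -0.67 in SKBR-3 and 2.32 in BT474m1 (difference 2.99), HEATR1 with -0.60 in SKBR-3 and 0.10 in BT474m1 (difference 0.70), NPM1 with -0.69 in SKBR-3 and 0.06 in BT474m1 (difference 0.75), POLR1B with -0.53 in SKBR-3 and 0.27 in BT474m1 (difference 0.80), UTP6 with -0.65 in SKBR-3 and 0.29 in BT474m1 (difference 0.94) and UBTF with 0.10 in SKBR-3 and -0.35 in BT474m1 (difference -0.46). With JQ1 they were BOP1 with -0.32 in SKBR-3 and 0.51 in BT474m1 (difference 0.83), NPM1 with -0.14 in SKBR-3 and 0.03 in BT474m1 (difference 0.18) and POLR1A with 0.14 in SKBR-3 and -0.40 in BT474m1 (difference -0.55). With both drugs they were NOB1 with 0.51 in SKBR-3 and -0.34 in BT474m1 (difference -0.84), UTP6 with -0.39 in SKBR-3 and 0.73 in BT474m1 (difference 1.1201) and UBTF with 0.08 in SKBR-3 and -0.53 in BT474m1 (difference -0.62). In 8 of the 12 the value of BT474m1 was the higher. The SKBR-3 values of POLR1A with JQ1 and of UBTF with both drugs turned to the other side of 0 with equal totals. Intervals shifted by the scaling came to include 0 for UBTF with lapatinib in SKBR-3 (0.05) and NPM1 with JQ1 in BT474m1 (0.0086) with equal totals, and for HEATR1 (0.04) and NPM1 (0.0063) with lapatinib in BT474m1 with the median of ratios.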

How the results depend on the processing

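A pseudocount of 10, no filter, a filter at 100, the mean in place of the median and calls limited to intervals that exclude 0 moved no median across 0 and no count of members by more than 1.5 times. Scaling mattered for the SKBR-3 libraries with JQ1. It shifted the median of all genes by over 0.1 in 3 comparisons: with JQ1 in SKBR-3 from -0.08 to -0.22 with equal totals, with both drugs against lapatinib in SKBR-3 from -0.11 to 0 with the median of ratios, and between the DMSO libraries from 0.21 to 0.06 with the median of ratios. With the median of ratios, the members' median became -0.74 with both drugs in SKBR-3, 0.13 (reversed) with both drugs against lapatinib in SKBR-3, and -0.52 between the DMSO libraries, and MYC in SKBR-3 became -0.10 with JQ1, -0.45 with both drugs against DMSO and 0.23 for both drugs against lapatinib. With equal totals the SKBR-3 median with JQ1 became -0.30, and MYC there became -0.34 with JQ1 and -0.69 with both drugs.

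Over all 51 members, 8 comparisons and both scalings, a value changed sign 30 times in SKBR-3 and 7 times in BT474m1. Among the 22 members given value by value it did so in 10 cases where the shift by the scaling was larger than the counting error, all in SKBR-3. With the median of ratios these were NCL with JQ1 (0.087) and, for both drugs against lapatinib, DKC1 (0.15), FBL (0.13), HEATR1 (0.13) and UBTF (0.14). With equal totals they were NOLC1 (-0.14), NOP56 (-0.051), POLR1A (-0.0041) and TAF1D (-0.11) with JQ1 and UBTF (-0.0039) with both drugs. Without the 9 members with fractional reads, which include TAF1D, the members at least 2-fold higher with lapatinib in BT474m1 went from 1 to 0. Each line and drug had 1 library, so no library could be left out and no spread between cultures was measured. The labels give no replicate numbers to pair. A fit over both lines with the line as a block, which would take the lines as replicates, was not run.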
